A study of Mus musculus with 6 samples.

Results

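This account concerns p53 target genes and inhibitors of cyclin-dependent kinases (Cdks) in mouse colon after deletion of Hdac2, which encodes the histone deacetylase HDAC2. All probe sets whose platform symbol was 1 of 10 gene names were taken: Cdkn1a, Cdkn1b, Cdkn2b, Mdm2, Sesn1, Ccng1, Perp, Trp53inp1, Bax and Trp53. This gave 18 probe sets of 8 genes, out of 45101 probe sets on the array and 18193 named genes. Bax and Trp53 had no probe set listed under their symbol and were not analysed here.

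The study compared colon RNA of 3 control mice with that of 3 mice named HDAC2 KO, 1 array per labelled mouse. The knockout mice carried a floxed Hdac2 gene and a Cre transgene driven by the promoter of villin, a gene of the gut epithelium and not of the muscle, immune or stromal cells of the gut wall. The genotype of the controls beyond the word control, and the age and sex of the mice, are not given in the sources used here. All animals were untreated, on a normal diet and of a background mixed from 3 strains (CD-1/129/C57BL/6). The label of each sample names epithelium, while the extraction protocol names colon. The description of the knockout samples names both HDAC1 and HDAC2, against the title and genotype, which name HDAC2 alone. The labels do not exclude pooled or repeated material, so the p-values measure the spread between these samples, which may be partly technical.

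The transcription factor p53 is stabilised by DNA damage and other stress and switches on genes that halt the cell cycle, repair DNA or start apoptosis. Among them is Cdkn1a, which encodes p21, an inhibitor of the Cdks that drive entry into S phase. Cdkn1a is also a textbook example of a gene held down by histone deacetylases, since deacetylase inhibitors raise it in many cell types without p53. In the intestine p21 and its relative p27 are found mainly in cells that have left the cycle on their way out of the crypt.

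The HDAC2 KO array of replicate 2 deviated most from the mean of its group, by a root mean square of 0.0799 in log2 signal over the 10916 genes tested, against 0.0417 to 0.0658 on the other arrays. The targeted gene, Hdac2, was lower by 13.7% in HDAC2 KO (difference -0.21, SE 0.0402, limma adjusted p = 0.00893), and its paralog Hdac1 was 1.11-fold higher (adjusted p = 0.0321). The Hdac2 call was lost over all probe sets tested one by one (adjusted p = 0.0768) and without the probe sets that can bind several transcripts (0.0884). Whether the Hdac2 probe set lies in the deleted part was not analysed here, so it does not check the deletion. Leaving out HDAC2 KO replicate 2 kept the Hdac1 call, and leaving out any of the other 5 arrays lost it (adjusted p between 0.0673 and 0.109). All 9 epithelial markers were above the filter on low signal, and so were the 7 smooth muscle and 7 fibroblast markers, so RNA of the gut wall was present beside that of the epithelium. In such bulk RNA, fewer cells of a type and less RNA per cell cannot be told apart.

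Of the 8 genes, 2 rose in HDAC2 KO, 0 fell and 6 were not called. The genes that rose were Cdkn1a and Sesn1, and the rise of Sesn1 was not stable. At an unadjusted p under 0.05 there were 5 genes, 1 of them, Cdkn2b, lower, where 31.6% of all genes tested passed and 14.8% passed as lower. The background was high: 17.9% of all genes tested were called, 9.68% as higher and 8.2% as lower. The 2 called genes were 25% of the 8, against 17.9% of all genes tested. Both were higher, where the whole array gave 9.68%, but the test took both directions. A share of 8 genes rests on few calls. The groups did not overlap for 6 of the 8 genes, against 37.7% of all genes tested. The median difference of the 8 genes was 0.0799 on the log2 scale against 0.00315 for all genes tested, and their median absolute difference was 0.128 against 0.0651. Leaving out control replicate 1 or 3, or HDAC2 KO replicate 1 or 3, left 1 gene called, and leaving out HDAC2 KO replicate 2 gave 4.

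**Figure D1:**
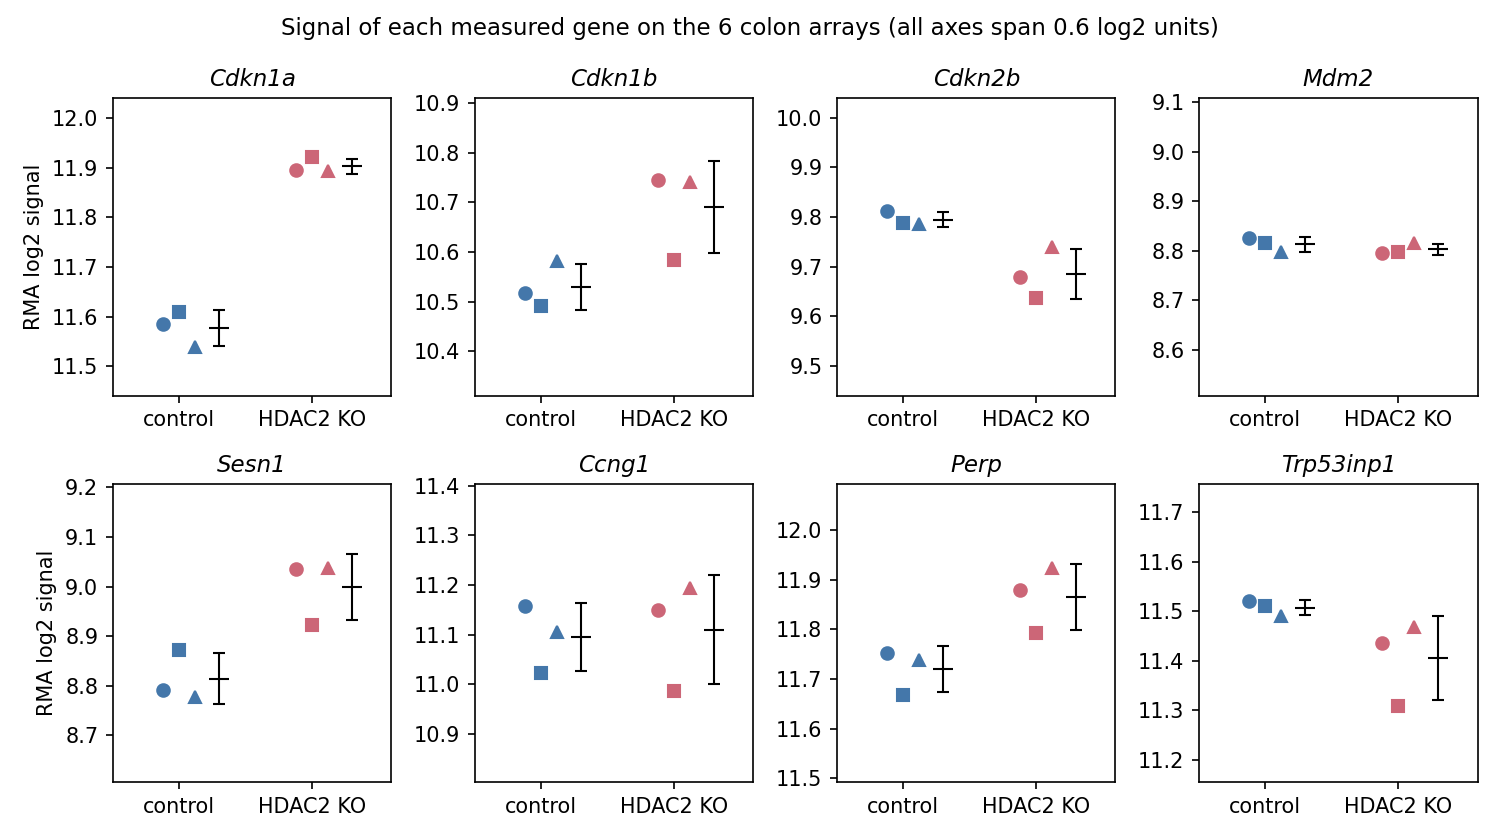
RMA log2 signal (vertical axis, each panel spanning 0.6 log2 units) of the 8 genes on the control arrays (blue) and HDAC2 KO arrays (red); circles, squares and triangles are replicates 1, 2 and 3, and the black bars are the mean and SD of 3 arrays. The Cdkn1a groups stand farthest apart, while those of Mdm2 and Ccng1 overlap.

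Cdkn1a, the p21 gene, was 1.25-fold higher in HDAC2 KO. Its probe set of higher signal read 11.584, 11.610 and 11.538 in the controls, against 11.895, 11.921 and 11.894 in HDAC2 KO. Every HDAC2 KO array lay above every control array, and the gap between the groups was wider than the spread within either. The difference was 0.33 in log2 signal (SE 0.034, 95% confidence interval 0.247 to 0.404, limma adjusted p = 0.000521), which placed Cdkn1a at rank 247 by p among the 10916 genes. Its absolute difference was at percentile 95.3 of all genes tested.

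The second Cdkn1a probe set gave a similar difference. It read 10.589, 10.590 and 10.530 in control and 10.972, 10.897 and 10.881 in HDAC2 KO, again without overlap. In the fit over all probe sets the differences were 0.33 (95% confidence interval 0.218 to 0.433, adjusted p = 0.0101) and 0.35 (0.231 to 0.463, adjusted p = 0.0105). These were the only 2 of the 18 probe sets called there, where 3.8% of all probe sets were called and 1.72% were called higher, and the groups did not overlap for 7 of the 18, against 23.2%. At an unadjusted p under 0.05 there were 6 of the 18, against 16.4%. In that fit both calls were lost without control replicate 1 (adjusted p = 0.0547 and 0.0509), and that of the second probe set also without control replicate 3 (0.0502). As a gene, Cdkn1a was called in all 18 alternative settings, with an adjusted p between 3.94e-06 and 0.0101, the highest being that of the fit over all probe sets, and a difference between 0.31 and 0.34.

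RefSeq gives Cdkn1a 2 transcription starts in GRCm38.p6, both on the plus strand of chromosome 17. The 250 bases before each are shown because Cdkn1a rose in every setting and is known to be reached both by p53 and by deacetylases. The windows of Sesn1, the other gene called higher, are not shown. The 10-base p53 half-site consensus and the GC box, GGGCGG, the binding sequence of Sp1 family factors, were searched on both strands, and capitals mark their matches.
Cdkn1a upstream start, chr17:29090729-29090978: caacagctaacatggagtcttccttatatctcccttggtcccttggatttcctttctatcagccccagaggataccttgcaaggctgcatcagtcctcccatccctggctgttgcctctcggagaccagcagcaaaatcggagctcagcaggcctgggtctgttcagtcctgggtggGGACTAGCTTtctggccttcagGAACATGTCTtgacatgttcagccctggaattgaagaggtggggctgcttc
Cdkn1a downstream start, chr17:29093519-29093768: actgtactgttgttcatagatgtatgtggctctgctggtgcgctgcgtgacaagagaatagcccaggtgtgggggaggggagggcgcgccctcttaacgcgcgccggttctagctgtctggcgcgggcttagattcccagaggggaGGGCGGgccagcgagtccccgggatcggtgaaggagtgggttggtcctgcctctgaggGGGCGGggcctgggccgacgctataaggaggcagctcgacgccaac
The window of the upstream start held 2 matches to the p53 half-site, at -73 to -64 and -51 to -42 from the start, and 0 GC boxes. The window of the downstream start held 2 GC boxes, at -104 to -99 and -46 to -41, and 0 p53 half-sites. Of 32841 RefSeq promoter windows of this length, 32.7% held a GC box, 16.7% held at least 2, and 7.13% held a p53 half-site. A match describes the letters and not a bound site. The array does not tell the 2 starts apart here, because which exons the probes cover was not analysed.

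The 5 genes nearest to Cdkn1a over the 6 arrays are given as a description, since the choice by likeness fixes that they differ between the groups as Cdkn1a does. By root mean square difference of gene-centred log2 signals they were Cnn1, the smooth muscle gene for calponin (0.0165), Dusp1, a stress-induced phosphatase of MAP kinases (0.0188), Tnc, the matrix glycoprotein tenascin C (0.0194), Nipal2 (0.0197) and Car9, a hypoxia-induced carbonic anhydrase (0.0207). Their differences lay between 0.29 and 0.34, that of Tnc being 0.20 with the mean of its probe sets. The list of smooth muscle markers moved in the same direction as Cdkn1a: 4 of 7 tested markers were called, all higher. Among all genes tested 17.9% were called, 9.68% as higher. The log2 of the summed signal of this list was 15.62 to 15.65 in control and 15.76 to 15.78 in HDAC2 KO. Of the 9 epithelial markers, 2 were called, both higher, Cdx2 by 0.20 and Krt20, a keratin of differentiated surface epithelium, by 0.48 (limma adjusted p = 9.11e-05), the summed log2 signal being 16.35 to 16.37 in control and 16.42 to 16.45 in HDAC2 KO. The summed signals thus shifted by 0.132 and 0.0796, while Krt20 shifted by more than Cdkn1a and Cnn1 by about as much. The part of tissue composition in the Cdkn1a difference was not tested.

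Cdkn1b encodes p27, the closest relative of p21 and an inhibitor of the same cyclin and Cdk complexes. Its probe set of higher signal read 10.517, 10.492 and 10.581 in control and 10.746, 10.583 and 10.742 in HDAC2 KO. The groups did not overlap, but HDAC2 KO replicate 2 lay next to control replicate 3. The difference was 0.16 (SE 0.0519, 95% confidence interval 0.0409 to 0.28), with a limma adjusted p of 0.0695, and it was not called. With the replicate number as a block the adjusted p was 0.0433, and without HDAC2 KO replicate 2 it was 0.00848 with a difference of 0.21. The groups overlapped at a second Cdkn1b probe set, whose means of 4.47 for control and 4.51 for HDAC2 KO were well below the filter level.

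Cdkn2b encodes p15, an inhibitor of Cdk4 and Cdk6 that responds to TGF-beta. It went the other way, with 9.812, 9.788 and 9.785 in control and 9.679, 9.638 and 9.739 in HDAC2 KO. All 3 HDAC2 KO arrays were lower, by a mean of -0.11 (SE 0.0369, 95% confidence interval -0.195 to -0.0248, limma adjusted p = 0.0787), which was not called. Cdkn1a, Cdkn1b and Cdkn2b thus gave differences of 0.33, 0.16 and -0.11.

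Mdm2 encodes the ubiquitin ligase that p53 induces and that in turn degrades p53, and it is among the most widely shared p53 targets. It read 8.826, 8.816 and 8.797 in control and 8.796, 8.797 and 8.816 in HDAC2 KO. The groups overlapped fully, with a difference of -0.01 (SE 0.0309, limma adjusted p = 0.861). Its 95% confidence interval, -0.0814 to 0.0609, lay below that of Cdkn1a, 0.247 to 0.404. The second Mdm2 probe set above the filter level differed by -0.02 (95% confidence interval -0.167 to 0.128), and a further 1 lay far below it.

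The window before the Mdm2 start in RefSeq, on the minus strand of chromosome 10 and read in the direction of the gene, is shown beside those of Cdkn1a because its gene did not rise.
Mdm2, chr10:117710759-117711008: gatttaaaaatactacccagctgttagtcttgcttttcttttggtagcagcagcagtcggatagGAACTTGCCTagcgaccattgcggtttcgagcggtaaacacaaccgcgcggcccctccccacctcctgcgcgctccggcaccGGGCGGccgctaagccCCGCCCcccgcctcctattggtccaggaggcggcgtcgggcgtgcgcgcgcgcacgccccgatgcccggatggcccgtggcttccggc
It held 1 p53 half-site match, at -186 to -177, and 2 GC boxes, at -104 to -99 and -88 to -83. Of the 8 genes measured, 6 had 8 such windows in RefSeq: 5 windows held a GC box and 4 a p53 half-site. The TATA box TATAAA was in 0 windows, against 12.4% of all promoters, and CCAAT in 5, against 33.9%. For Cdkn1a the half-site matches and the GC boxes lay in separate windows, while the Mdm2 window held both. The downstream Sesn1 window also held both, with 4 GC boxes and 1 half-site, and Sesn1 was called higher. The Ccng1 window held 1 half-site and 0 GC boxes, and Ccng1 was not called. This layout thus did not set the genes that rose apart from those that did not. Sequence outside these windows was not searched.

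Ccng1, which encodes cyclin G1, is another gene that p53 induces in most tissues. It read 11.158, 11.023 and 11.106 in control and 11.150, 10.986 and 11.194 in HDAC2 KO. The 2 groups covered the same range, with replicate 2 lowest in both, and differed by 0.01 (SE 0.0607, 95% confidence interval -0.126 to 0.154, limma adjusted p = 0.905). The other 2 Ccng1 probe sets differed by 0.06 and 0.10 and were not called. The sign of this small difference turned without control replicate 2, HDAC2 KO replicate 1 or HDAC2 KO replicate 3.

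Sesn1 encodes sestrin 1, a stress protein induced by p53 that restrains the growth kinase mTORC1. Its probe set of highest signal read 8.792, 8.873 and 8.778 in control and 9.036, 8.922 and 9.038 in HDAC2 KO. All HDAC2 KO arrays were higher, replicate 2 least so. The difference was 0.18 (SE 0.0455, 95% confidence interval 0.0795 to 0.289, limma adjusted p = 0.0276), a 1.14-fold rise.

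The Sesn1 call depended on the setting. With the replicate number as a block the adjusted p was 0.0625, and leaving out control replicate 1 or 3 gave 0.102 and 0.0915. Leaving out HDAC2 KO replicate 1 or 3 gave 0.0969 and 0.0706. Its suffix marks a probe set that may match transcripts of more than 1 gene. Without such probe sets another stood for the gene, with a larger difference of 0.25 and an adjusted p of 0.0997. Another Sesn1 probe set differed by 0.15 with a wide 95% confidence interval, -0.251 to 0.548, and overlapping groups. The fourth lay below the filter level. Sesn1 lies on chromosome 10, as does the targeted gene Hdac2, with 33 annotated protein-coding genes between them. Of 17 of these that were tested, 2 were called, both lower, or 11.8%. Strain differences at linked sequence in mice of mixed background were not tested. Mdm2 and Perp also lie on chromosome 10, with 632 and 100 protein-coding genes between them and Hdac2.

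Perp encodes a membrane protein induced by p53 in apoptosis, which is also a part of desmosomes in epithelia. It read 11.753, 11.667 and 11.739 in control and 11.879, 11.793 and 11.924 in HDAC2 KO. Each HDAC2 KO array lay above all control arrays, and within each group replicate 2 was lowest. The difference of 0.15 (SE 0.0446, 95% confidence interval 0.0426 to 0.248) had a limma adjusted p of 0.059 and was not called. With the replicate number as a block the adjusted p was 0.0345, and without HDAC2 KO replicate 2 it was 0.0189.

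Trp53inp1 encodes a p53-induced nuclear protein that promotes p53 phosphorylation and autophagy. It read 11.520, 11.510 and 11.491 in control and 11.437, 11.309 and 11.469 in HDAC2 KO. The HDAC2 KO arrays were all lower, replicate 2 by the most, but the difference of -0.10 (SE 0.0461, 95% confidence interval -0.208 to 0.00461, limma adjusted p = 0.176) was not called. Its second probe set, below the filter level, overlapped between groups.

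**Figure D2:**
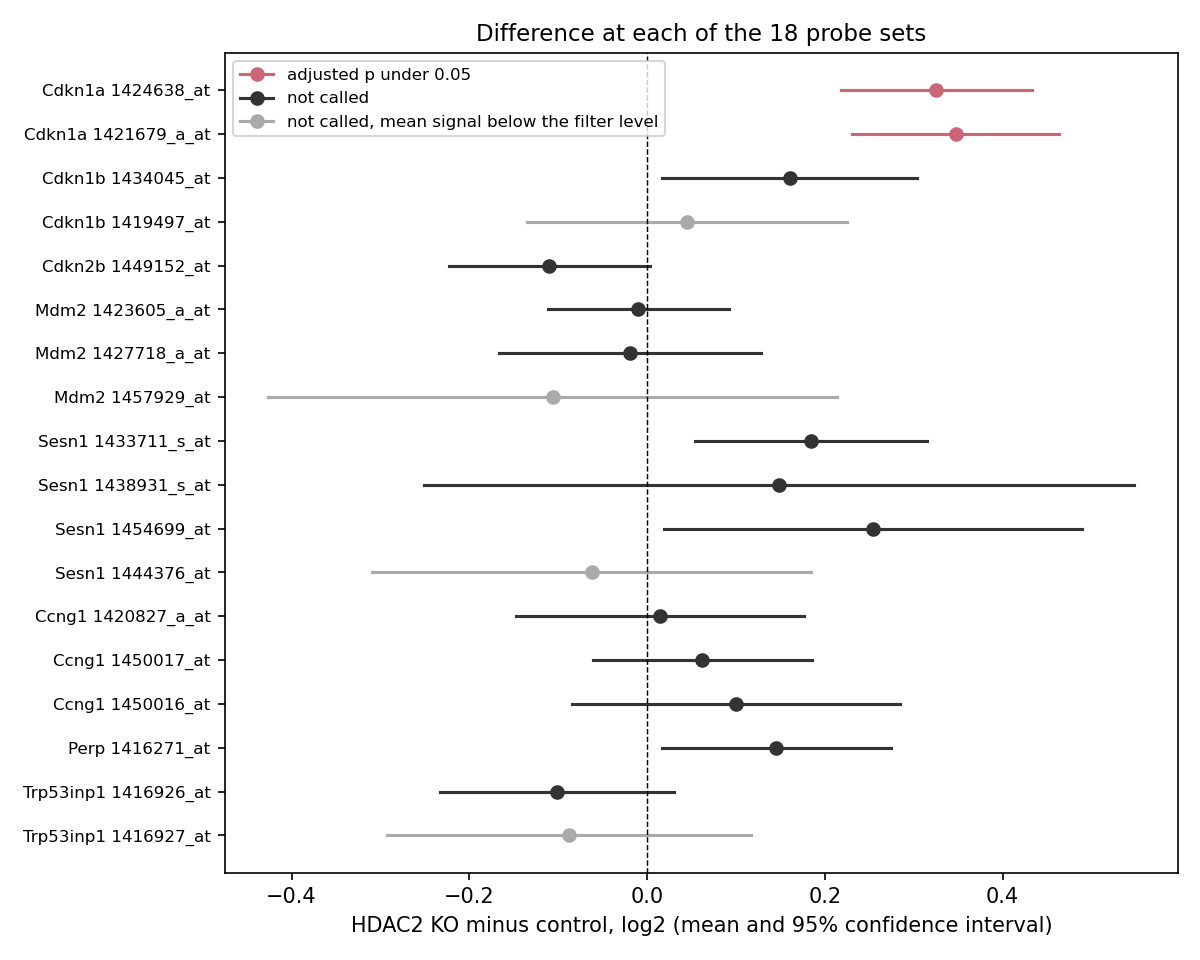
HDAC2 KO minus control in log2 signal (horizontal axis) at each of the 18 probe sets, as the mean difference (point) with its 95% confidence interval (line) from the fit over all probe sets; red marks an adjusted p under 0.05 and grey a mean signal below the filter level. Both Cdkn1a probe sets are at 0.33 and 0.35, and the Mdm2 and Ccng1 intervals all include 0.

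Whether Cdkn1a moved more than the other genes was asked of the log2 ratio of its signal to that of each gene on the same array. The ratio to Mdm2 rose by 0.34, from 2.765 ± 0.0271 to 3.100 ± 0.0232 (SD, n = 3), the ratio to Ccng1 by 0.31 and that to Trp53inp1 by 0.43. The smallest increases were those against Sesn1 (0.14), Cdkn1b (0.17) and Perp (0.18). All 7 ratios hold the same Cdkn1a values, whose groups did not overlap, so they are not 7 separate results. For all 7 ratios every HDAC2 KO array lay above every control array, each with an exact 2-sided permutation p of 0.1. This is the smallest p that 3 against 3 arrays can give, before and after adjustment over the 7 ratios, so this permutation test cannot reach 0.05 here.

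**Figure D3:**
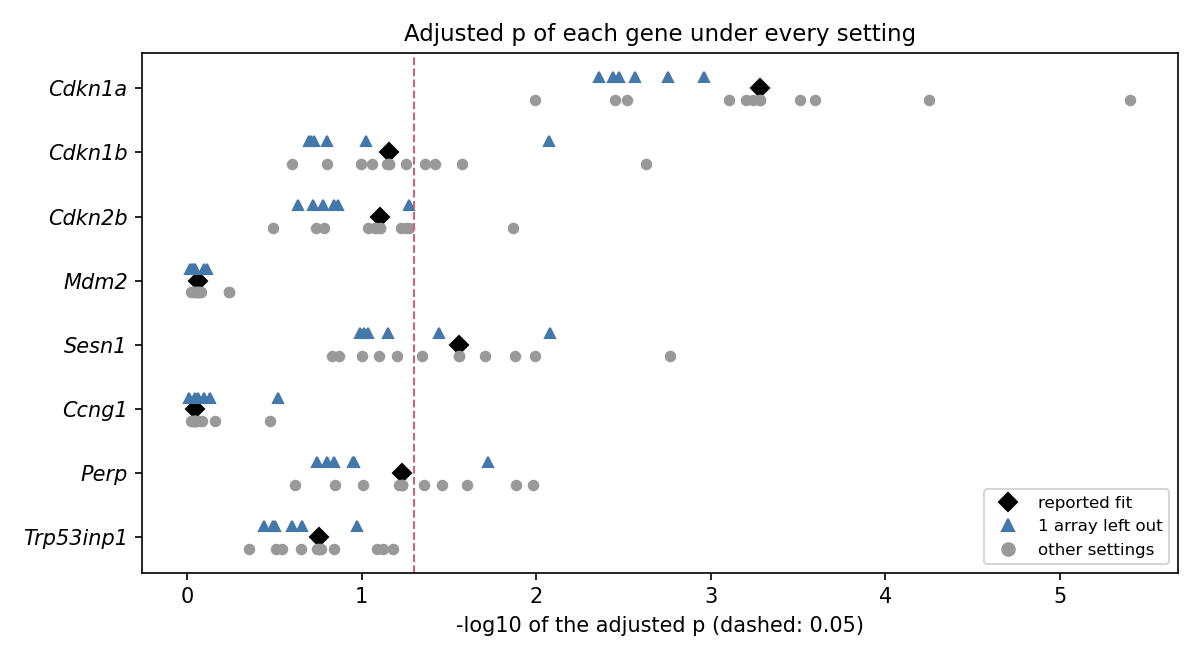
Adjusted p of each gene as -log10 (horizontal axis, larger to the right) in the reported fit (black diamond), with 1 array left out (blue triangles) and in the other settings (grey circles); the dashed line is 0.05. Cdkn1a lies to the right of the line in every setting and Mdm2, Ccng1 and Trp53inp1 to its left in every setting, while the other 4 genes fall on both sides.

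The wider p53 pathway was read from lists of genes outside the 10. Among 31 tested p53 targets, 5 were higher, 1 lower and 25 not called. In both directions together 19.4% were called, against 17.9% of all genes tested, of which 9.68% were higher and 8.2% lower. By limma at an unadjusted p under 0.05, 9 of the 31 were higher and 1 lower. Of all 10916 genes tested, 1832 were higher and 1612 lower at that level. The median difference of the 31 targets was 0.0662, against 0.00315 for all genes tested. Ada, the adenosine deaminase gene, was 1.23-fold higher (0.29, SE 0.0453, limma adjusted p = 0.00338), as were the antigen peptide transporter gene Tap1 (1.22-fold, adjusted p = 0.00505) and the ephrin receptor gene Epha2 (1.16-fold, adjusted p = 0.00446). Dram1, which encodes a lysosomal protein of p53-induced autophagy, fell to 6.60 ± 0.0118 (SD, n = 3) from 7.14 ± 0.16 in control, a 1.46-fold difference (limma adjusted p = 0.00156). Its HDAC2 KO values lay below the filter level of 6.66, so Dram1 was tested only through its control signal. These 4 genes were called with any 1 array left out. Markers of leukocytes were lower on the same arrays: 7 of 7 tested B cell, 3 of 4 T cell and 3 of 6 macrophage and dendritic cell genes were called lower. Of all genes tested 8.2% were called lower. The HDAC2 KO means of Cd79a (6.60) of the B cell list and Ms4a4b (5.88) of the T cell list were below the filter level. In the macrophage list Ptprc (-0.80), Csf1r (-0.29) and Lyz2 (-0.32) were called, while C1qa, C1qb and C1qc were not. B and T cells express Ptprc too, so its fall does not mark macrophages alone, and it counts in the summed signal of that list. The log2 of the summed B cell signal was 13.51 to 13.53 in control and 13.00 to 13.15 in HDAC2 KO, that of the T cell list 10.51 to 10.56 and 9.43 to 9.59, and that of the macrophage list 12.77 to 12.83 and 12.45 to 12.46. Of the T cell list 5 of 9 named genes, and of the macrophage list 4 of 10, were below the filter. Fat cell markers were lower too, in 5 of 5 cases tested, with a summed log2 signal of 13.78 to 13.84 in control and 11.42 to 11.50 in HDAC2 KO. The part of these cells in the values of Dram1, Ada and Tap1 was not tested.

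Among 21 tested p53 relatives and regulators, 2 were higher and 2 lower, or 19%, close to the 17.9% of all genes tested. The higher ones were the checkpoint kinase genes Chek1 (1.21-fold, limma adjusted p = 0.0252) and Chek2 (1.13-fold, adjusted p = 0.02), and the lower ones Trp53bp1, which encodes the damage adaptor 53BP1 (-0.15, adjusted p = 0.0388), and the acetyltransferase gene Crebbp (-0.16, adjusted p = 0.0459). None of these 4 was called with every array left out in turn, and the count of 4 fell to 0 without control replicate 1 or HDAC2 KO replicate 1, to 1 without control replicate 3, to 2 without control replicate 2 or HDAC2 KO replicate 2, and to 1 with the replicate number as a block. Trp63 and Trp73, the relatives of Trp53, were below the filter.

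In the Bcl2 family, which decides on the release of cytochrome c in apoptosis, 1 of 13 tested genes was called. The share was 7.69%, against 17.9% of all genes tested. The called gene is named next. This was Bid, a proapoptotic member, 1.28-fold higher (0.35, SE 0.0706, limma adjusted p = 0.0118). The next by p were Bmf (-0.14, adjusted p = 0.0533), Bak1 (0.13, adjusted p = 0.0658) and Bcl2l2 (0.09, adjusted p = 0.0966), none of them called. Without HDAC2 KO replicate 2 the count was 2.

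Of 4 further Cdk inhibitors tested, 1 was called, or 25%, against 17.9% of all genes tested. Cdkn3, a phosphatase gene whose transcript rises in dividing cells, was 1.12-fold higher (0.16, SE 0.0458, limma adjusted p = 0.0426), a call kept when HDAC2 KO replicate 2 was left out and lost when any of the other 5 arrays was (adjusted p between 0.0706 and 0.125) and with the replicate number as a block (0.0789). Cdkn2c, Cdkn2d and Cdkn1c differed by 0.09, 0.06 and -0.07 and were not called. Cdkn2a, which encodes p16 and the p53 activator ARF, was below the filter, with means of 4.11 for control and 4.08 for HDAC2 KO.

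The Rb and E2F family carries the restraint of p21 on the genes of S phase, and E2f7, E2f8, E2f2 and Rbl1 are themselves induced as cells enter it. In this family 5 of 12 tested genes were higher and 0 lower, with a median difference of 0.13. This was a share of 41.7%, against 17.9% of all genes tested. By limma at an unadjusted p under 0.05 the count of lower genes was 0, against 14.8% of all genes tested. E2f8 was 1.36-fold higher (0.44, SE 0.0472, limma adjusted p = 0.000564), E2f7 1.26-fold (adjusted p = 0.00153) and Rbl1, the gene of the pocket protein p107, 1.15-fold (adjusted p = 0.0084). These were called with any 1 array left out. With the mean of its probe sets the E2f8 difference was 0.21 (adjusted p = 0.0194). E2f2 was 1.12-fold higher (adjusted p = 0.0171), a call lost without control replicate 1 (0.0814) or control replicate 3 (0.0554), and with the mean of its probe sets (0.10, adjusted p = 0.14). The list count was 3 without control replicate 1 or control replicate 3.

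Cyclins and Cdks of the cell cycle gave 4 higher and 1 lower gene of 15 tested, with a median of 0.000559. This was a share of 33.3%, against 17.9% of all genes tested, of which 9.68% were higher and 8.2% lower. The S phase cyclin gene Ccna2 was 1.18-fold higher (0.24, SE 0.0369, limma adjusted p = 0.00375), the cyclin E2 gene Ccne2 1.23-fold (adjusted p = 0.0155), Cdk1 1.12-fold (adjusted p = 0.0365) and Ccne1 1.11-fold (adjusted p = 0.0368). With the replicate number as a block the calls of Cdk1 (adjusted p = 0.0603) and Ccne1 (0.0622) were lost, which left 3 of the list called. The Ccne1 difference was 0.22, against 0.15 as reported, without the probe sets that can bind several transcripts. Cdk2, the target of p21, was lower by -0.21 (SE 0.0584, adjusted p = 0.0427), a call lost without any of control replicates 1 and 3 and HDAC2 KO replicates 1 and 2 (adjusted p between 0.0599 and 0.149). Of these 5 genes Ccna2 alone was called with every array left out in turn. The count of 5 became 4 when HDAC2 KO replicate 3 was left out and 2 when any of the other 5 arrays was.

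Known regulators of Cdkn1a other than p53 gave 5 higher and 2 lower genes of 16 tested, or 43.8%. Among all genes tested 17.9% were called, 9.68% as higher and 8.2% as lower. The list holds Hdac1 and Hdac2 themselves, and both are among its called genes. Myc, which represses Cdkn1a, was lower by -0.23 (SE 0.0488, limma adjusted p = 0.0154), a call lost without control replicate 1 (0.069), where the list count was 4. The intestinal transcription factor gene Cdx2 was 1.15-fold higher (0.20, SE 0.0313, adjusted p = 0.0036), as was Klf6 (1.15-fold, adjusted p = 0.00625), and the Myc antagonist gene Mxd1 was 1.19-fold higher (adjusted p = 0.00948). Across the lists 29 of 112 tested genes were called, or 25.9%, against 17.9% of all genes tested. Of these 29 genes, 13 were called with any 1 array left out. Leaving out control replicate 1, 2 or 3 gave 15, 18 and 16, and leaving out HDAC2 KO replicate 1 gave 16.

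**Figure D4:**
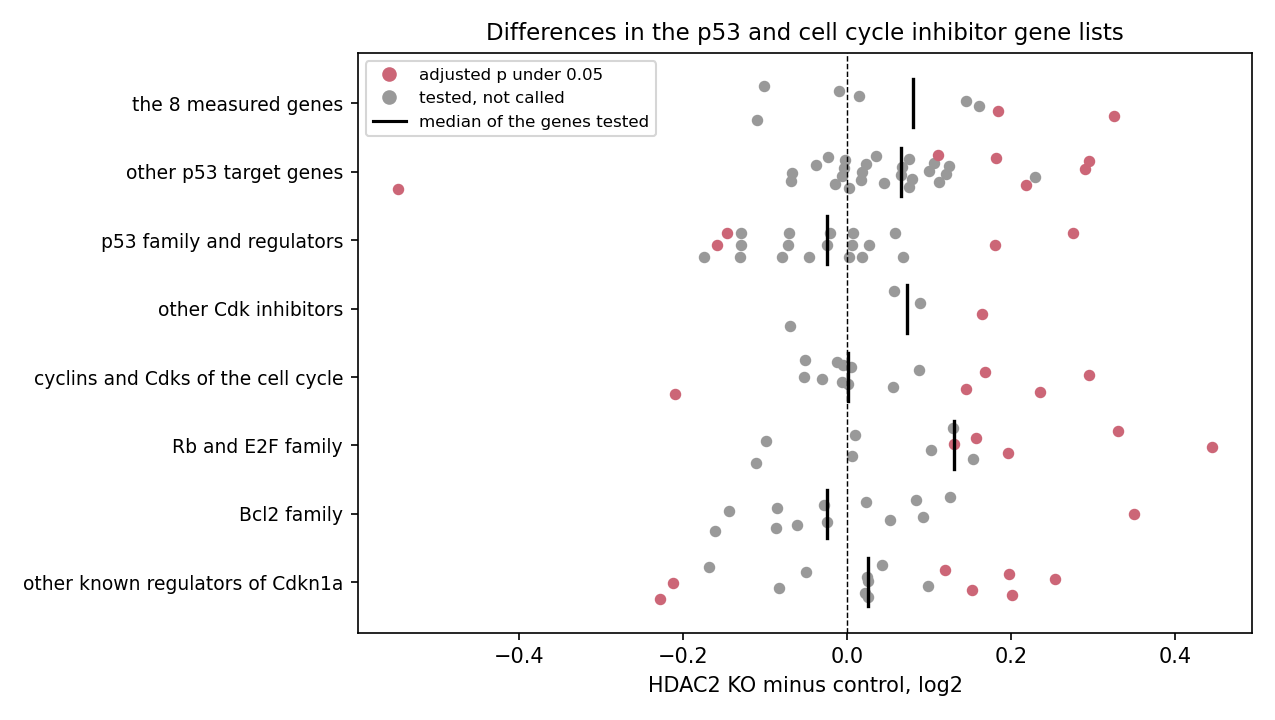
HDAC2 KO minus control in log2 signal (horizontal axis) for every tested gene of the 8 measured genes and of 7 pathway lists; red points had an adjusted p under 0.05, grey points did not, and black bars are the medians. The medians lie between -0.0246 and 0.13, that of the Rb and E2F family being 0.13.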

How the data were processed

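Gene expression was measured on 6 one-colour arrays, 3 of control and 3 of HDAC2 KO colon. The deposited values are log2 signals. The authors made them with RMA, of a version not given, per the submitters' processing notes, and the log2 scale was read from the values, 2.39 to 14.6. RMA shares 1 distribution between arrays, hides a change in total RNA and understates differences at low signal. The number of arrays limits the precision. No scan date was used here and no batch was tested.

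Gene symbols came from a platform annotation of 2016. Of 45101 probe sets, 64 were array controls and 34945 had 1 symbol. For each of 18193 genes the probe set of highest mean signal was taken, and the test took the 10916 genes at or above the 40th percentile (6.66 in log2 signal). HDAC2 KO was compared with control by lmFit and eBayes of limma 3.58.1 (R 4.3.3), with group as the only term and Benjamini-Hochberg adjustment over all features in the fit, once over genes and once over all 45037 probe sets. Every adjusted p is limma's, with 3 arrays per group, and a call is an adjusted p under 0.05. The script was tested on simulated data with 50 genes changed at each size. It called 50% of the changes of 0.2 in log2 signal and 68% of those of 0.3. A gene not called here can thus still differ by a small amount. The simulation changed fewer genes than the 1952 called in the data, so its shares need not hold for this fit. The alternatives, listed in the closing section, covered the filter, the summary per gene, the scaling, the variance model, the threshold and the arrays.

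The named genes are all members, Hdac2 and Hdac1, in each pathway list up to 4 tested genes of smallest p and all called genes where fewer than 5 were called, and the 5 genes nearest to Cdkn1a over the 6 arrays. Cdk2, Myc, Krt20 and the named leukocyte markers, and Trp63, Trp73 and Cdkn2a below the filter, were named outside this rule after their values were seen. The members and lists were chosen with earlier results of these data known. Both groups have mice numbered 1 to 3. Arrays of the same number deviated together from their group means, with r of 0.21, 0.34 and 0.20. For arrays of unlike number r lay between -0.37 and 0.18, the highest being close to 2 of the matched values. An alternative fit therefore used the replicate number as a block. The pairing rests on these correlations and not on a label.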

Additional observations from a re-analysis of the deposited data

How the results depend on the processing

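Cdkn1a was called in all 18 settings tried, and Mdm2, Ccng1 and Trp53inp1 in 0. Sesn1 lost its call in 10 of 18, while Cdkn1b gained one in 6, Perp in 7 and Cdkn2b in 2. The number of the 8 genes called, 2 as reported, was 1 without the signal filter, with the probe sets of a gene averaged, without probe sets that can bind several transcripts, at an adjusted p under 0.01 and over all probe sets one by one, a setting added after seeing the data. It was 4 with a further quantile normalization or with an intensity trend and robust variances, 5 with array weights or at an adjusted p under 0.10, and 1 to 4 with 1 array left out. With the replicate number as a block it was 3, since Cdkn1b and Perp gained a call and Sesn1 lost it, and 1943 of all genes were called against 1952 without it. Of the 18 probe sets, 2 as reported, 5 were called with an intensity trend, 0 at an adjusted p under 0.01, where 6 had an unadjusted p under 0.05, and 0 to 2 with 1 array left out. Of the pathway list genes, 29 as reported, 15 were called without the filter, 17 with it at the 60th percentile, 45 with array weights, 12 at an adjusted p under 0.01, and 15 to 28 with 1 array left out. Of all genes, 3506 were called with array weights, 954 at an adjusted p under 0.01, and 1130 to 2107 with 1 array left out. Centring arrays on their median changed no call of the 8 genes. The Ccng1 difference turned to -0.022, -0.0058 and -0.028 without control replicate 2, HDAC2 KO replicate 1 and HDAC2 KO replicate 3, within -0.028 to 0.077 over all settings, and that of Bmf to 0.023 with the mean of its probe sets; the causes were not tested. Low signal limits the probe sets below the filter level, and 3 arrays per group limit the rest.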
